A study of Rattus norvegicus with 46 samples.

Results

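The transcripts by which heart muscle cells take up, burn and store glucose were measured after a day with 1 of 5 fatty acids. Of 10 genes chosen by name, 8 had a probe on the array, 1 each: Slc2a1, Slc2a4, Pfkm, Pfkfb2, Gapdh, Eno3, Ldhb and Pygm. Probes were assigned to these genes through the symbol or accession given with each probe, after removing the ending that marks a predicted gene and after translating older names. Hk1, a hexokinase, and Gys1, the glycogen synthase of muscle, had none among the 22517 probes, so nothing is reported on them. Slc2a1 was detected in 3 of 46 arrays and Pfkfb2 in 0 of 46, which left 6 genes among the 7182 that were tested.

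All cells were wild-type cardiomyocytes of adult male Wistar rats, isolated, kept overnight without serum on laminin and then treated for 24 h. The treated groups received 0.4 mM octanoate (8 arrays), palmitate (8), stearate (8), oleate (8) or linoleate (7), each bound to defatted bovine serum albumin, and the control group (7 arrays) received albumin alone. The medium of every group held 1% albumin. Nothing in the labels tells whether replicates of a group came from different animals or culture dishes. Each p-value therefore rests on the variation among these arrays, part of which may be technical.

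Glucose enters a heart muscle cell through transporters in the cell membrane, of which the one encoded by Slc2a4 (GLUT4) responds to insulin and contraction and the one encoded by Slc2a1 (GLUT1) carries basal uptake. Inside, the sugar is phosphorylated and either stored as glycogen or broken down by glycolysis, where phosphofructokinase is a main point of control. The heart prefers fatty acids when they are abundant, and fatty acid oxidation is known to restrain glucose use at the level of enzyme activity. The comparisons below ask whether the transcripts of glucose use are also lower in cells given fat.

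Levels are given as log2 normalized intensity, and a change is the difference between 2 group means on that scale with its standard error (SE). A gene was called changed when the Benjamini-Hochberg adjusted p of limma, taken over all 7182 genes, was under 0.05. The level of one probe says nothing of the level of another.

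Octanoate lowered 4 of the 6 tested genes: Slc2a4, the muscle phosphofructokinase gene Pfkm, the muscle enolase gene Eno3 and the muscle glycogen phosphorylase gene Pygm, by 0.67 to 1.08 on the log2 scale. Of all 7182 genes, 13.1% were lower with octanoate and 24.7% changed in either direction. Slc2a4 was also lower with palmitate and with stearate, and lower in the mean of the 5 fatty acids than in control. With oleate and with linoleate 0 of the 6 genes passed the test, where only 0.571% and 0.473% of all genes passed. The changes of Slc2a4 there were -0.80 and -0.76, near the -0.77 with stearate, and it passed in no comparison between fatty acids. Eno3 differed between fatty acids: it was higher with stearate than with palmitate, and lower with oleate than with stearate. Gapdh and Ldhb passed in 0 of the 10 comparisons made.

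Between 3090 and 7886 probes per array were detected above the negative controls (13.7% to 35%), and array medians of the raw signal ran from 135 to 230. Some arrays stood apart. Replicate 4 of octanoate, palmitate, oleate and linoleate held high levels of hypoxia-induced transcripts: Adm, the adrenomedullin gene, read 11.65, 12.01, 11.61 and 11.75 there, 7.72 in stearate replicate 4 and 6.95 in control replicate 4, with a median of 6.88 over the 40 arrays with another number. Among those 40, octanoate replicate 7 (9.78), palmitate replicate 7 (9.69) and linoleate replicate 6 (8.44) were also high in Adm. Stearate replicate 4 lacked part of the response of its group. Acot1, a gene that responds to fatty acids, read 5.89 on it, against 7.76 to 9.54 in the other stearate arrays. Angptl4, another such gene, read 7.02, within the 6.21 to 8.25 of the other stearate arrays. Control replicate 4 read 6.56 for Angptl4 and the other control arrays 5.94 to 6.19. Pdk4, a kinase that switches off pyruvate oxidation and is induced by fatty acids, read 7.48 on stearate replicate 4, whereas the other 7 stearate arrays lay at 11.18 to 12.91 and the control arrays at 6.21 to 8.16. Where leaving out the arrays numbered 4 and 7, or stearate replicate 4, ends or adds a call described here, its value is given beside it.

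Cardiomyocyte identity was clear from 11 of 12 markers, which passed the detection filter. Of the markers of other cells, the fibroblast genes Dcn and Col1a2 were detected in 46 and 45 arrays, the pericyte gene Cspg4 in 39, the macrophage gene Cd68 in 19, the hemoglobin gene Hbb in 14 and the endothelial gene Cldn5 in 11. The fibroblast genes Lum, Postn, Pdgfra, Col3a1 and Tcf21 were detected in 13, 12, 3, 2 and 1. Slc4a1 (red blood cells) was detected in 8, Cd14 (macrophages) in 7, Fabp4 (adipocytes) in 5, and Myh11 and Tagln (smooth muscle) in 4 and 3. Adgre1 (macrophages), Vwf and Tie1 (endothelium) and Cfd (adipocytes) were detected in 1 array each. Col1a1 (fibroblasts), Ptprc (leukocytes), Cd163 (macrophages), Cdh5 and Tek (endothelium), Cnn1 and Rgs5 (smooth muscle and pericytes), Adipoq, Lep and Plin1 (adipocytes) and Alas2 (red blood cells) were detected in 0 arrays.

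Uptake of glucose comes first. Slc2a4 had a lowest, median and highest level of 5.68, 6.32 and 6.58 with octanoate, 5.84, 6.33 and 6.88 with palmitate, and 5.71, 6.14 and 7.81 with stearate. It read 5.96, 6.31 and 6.89 with oleate and 6.03, 6.44 and 6.69 with linoleate, against 6.54, 6.91 and 8.13 in control. In 37 of 39 fatty acid arrays the level was below the control median, but every fatty acid group overlapped the control group. Control replicates 2 and 4 were the high ones, at 8.13 and 8.10, whereas the other 5 control arrays lay between 6.54 and 7.34. Its probe was near the detection limit, with detection in 2 of 8 octanoate, 1 of 8 palmitate, 2 of 8 stearate, 3 of 8 oleate and 2 of 7 linoleate arrays, against 6 of 7 control arrays.

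Slc2a4 was lower than control by 0.89 ± 0.25 with octanoate (log2 change -0.89, adjusted p = 0.00693, limma), which is 1.85-fold lower. The change was -0.84 ± 0.25 with palmitate (adjusted p = 0.0223) and -0.77 ± 0.25 with stearate (adjusted p = 0.0338). Oleate and linoleate gave -0.80 ± 0.25 and -0.76 ± 0.26, which did not pass (adjusted p = 0.247 and 0.428). They passed with the replicate number as a block (-0.84 and -0.76, adjusted p = 0.00789 and 0.0387), and oleate also with array weights (-0.82, adjusted p = 0.0312). Replicate numbers were not taken to pair these arrays with control, however. Correlations of array deviations from the group means ran from -0.626 to 0.516 with oleate and from -0.433 to 0.454 with linoleate. Slc2a4 passed in 0 of the 4 comparisons between fatty acids: the 95% interval of stearate against palmitate ran from -0.42 to 0.56 and that of oleate against stearate from -0.52 to 0.45. Over the 5 fatty acids the mean of the group means was 6.36, against 7.17 in control, a change of -0.81 ± 0.20 (adjusted p = 0.00771). That SE takes the 39 fatty acid arrays as independent, although deviations of arrays with the same number correlated between several fatty acid groups.

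The calls of Slc2a4 leaned on single arrays to different degrees. The octanoate call held in all 15 fits that each left out 1 array of the 2 groups (adjusted p up to 0.0322). Without control replicate 2 or 4 the palmitate change was -0.68 or -0.69 (adjusted p = 0.0906 or 0.0883) and that of the mean of the 5 fatty acids -0.65 or -0.66 (adjusted p = 0.0638 or 0.0618). The stearate call was lost without control replicate 2, 4 or 5 or stearate replicate 1, 3, 5, 6, 7 or 8 (change -0.97 to -0.61 over the 15 fits, adjusted p up to 0.114), whereas without stearate replicate 4 it was -0.97 (adjusted p = 0.00284). Without the arrays numbered 4 and 7 the changes were -0.71 with palmitate, -0.79 with stearate and -0.74 in the mean (adjusted p = 0.156, 0.0563 and 0.0621), so these calls were lost. With the arrays scaled to a common median all 4 calls were lost (adjusted p = 0.0506 to 0.132). The stearate call was also lost without the detection filter (-0.77, adjusted p = 0.0665).

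Other markers moved in the same comparisons as Slc2a4. With palmitate the pericyte gene Cspg4 (-1.02, adjusted p = 0.0307) and the myosin light chain gene Myl2 (-0.98, adjusted p = 0.0329) were lower than in control, and Cd68 was higher (0.70, adjusted p = 0.0328). Cd14, the other macrophage gene tested, had a group mean below control with all 5 fatty acids. The median change of these 2 macrophage genes was 0.17 with palmitate. With stearate Cspg4 (-2.12, adjusted p = 8.76e-06) and the fibroblast gene Dcn (-1.14, adjusted p = 0.0461) were lower, and Cldn5 was higher (0.62, adjusted p = 0.0483). Cldn5 was the 1 endothelial marker tested, and its intensity ran from 80.0 to 600 with stearate (median 126), against 82.3 to 107 in control. Of 2 red blood cell markers tested, 1 was higher with stearate. The summed intensity of the 4 fibroblast markers tested was 1433 to 4609 with palmitate and 1276 to 4580 with stearate, against 1949 to 7746 in control. The 95th percentile of the raw signal over its median, a measure of the spread of signals on an array, was 7.05 to 18.2 with palmitate and 4.79 to 16.1 with stearate, against 11.1 to 16.2 in control. With this ratio, the signal range, as a covariate, the stearate change of Slc2a4 was -0.50 and its call was lost (adjusted p = 0.135, limma). The palmitate call was kept. The part of the marker shifts in the fall of Slc2a4 was not tested.

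**Figure D1:**
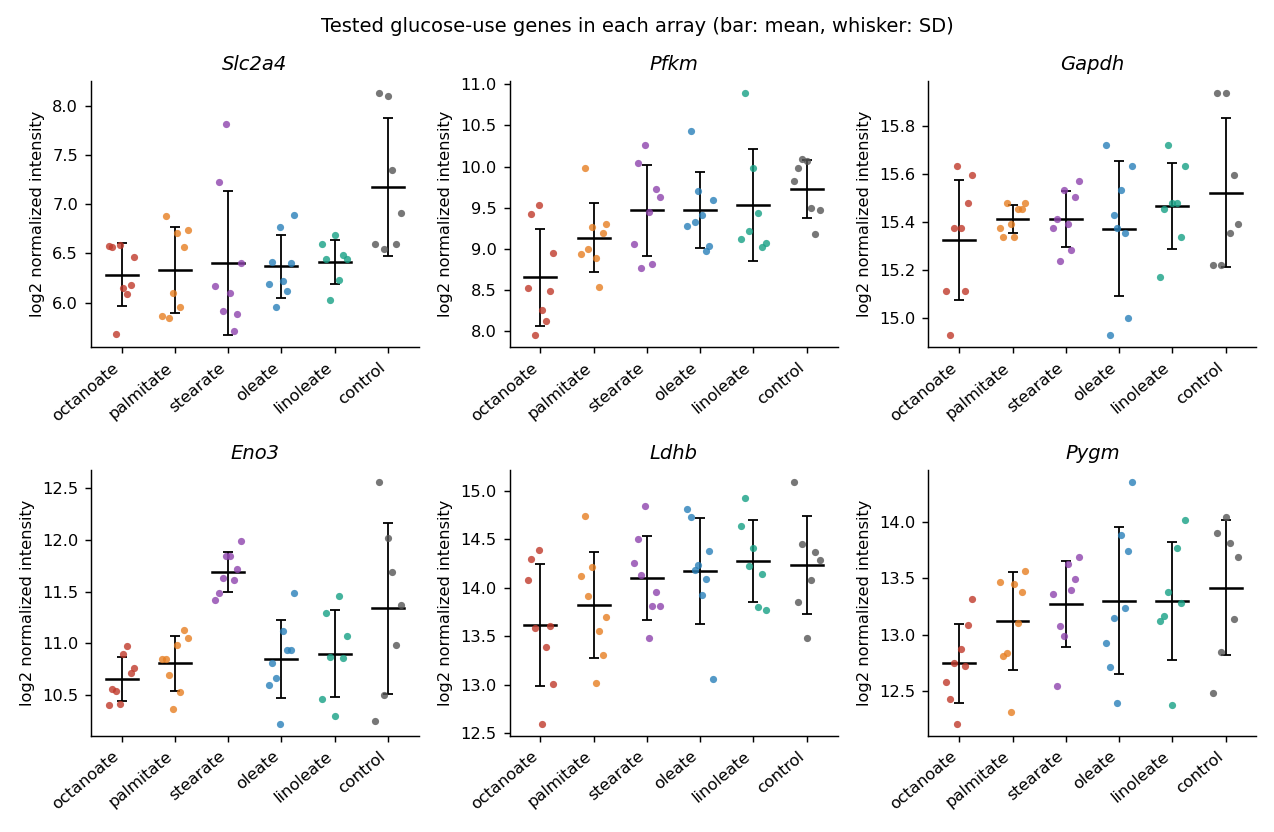
Log2 normalized intensity of the 6 tested genes in each of 46 arrays, by treatment, with control on the right; points are arrays, bars group means and whiskers SD. Slc2a4 is highest in control replicates 2 and 4 (8.13 and 8.10), Pfkm is lowest with octanoate, and the 8 stearate arrays of Eno3 lie at 11.42 to 11.99.

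Slc2a1 was at the background of the array in nearly all samples. Its level was 5.49 to 6.04 in the 40 arrays that are not numbered 4, and 5.78 and 5.84 in replicate 4 of stearate and control. Replicate 4 of octanoate, palmitate, oleate and linoleate read 7.01, 6.5, 6.39 and 6.38. Those 4 arrays held the highest Adm, and Hk2, a hexokinase known to be induced by low oxygen, read 9.36, 8.74, 8.55 and 8.59 in them, against a median of 6.26 over the 40 arrays with another number. Hk2 was also high in octanoate replicate 7 (9.75), palmitate replicate 7 (8.30) and linoleate replicate 6 (8.19), where Slc2a1 stayed at 6.04 or less. The part of low oxygen in these levels was not tested. The promoter of Slc2a1 is printed further down for its ACGTG site, the core that hypoxia-inducible factors are known to bind.

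**Figure D2:**
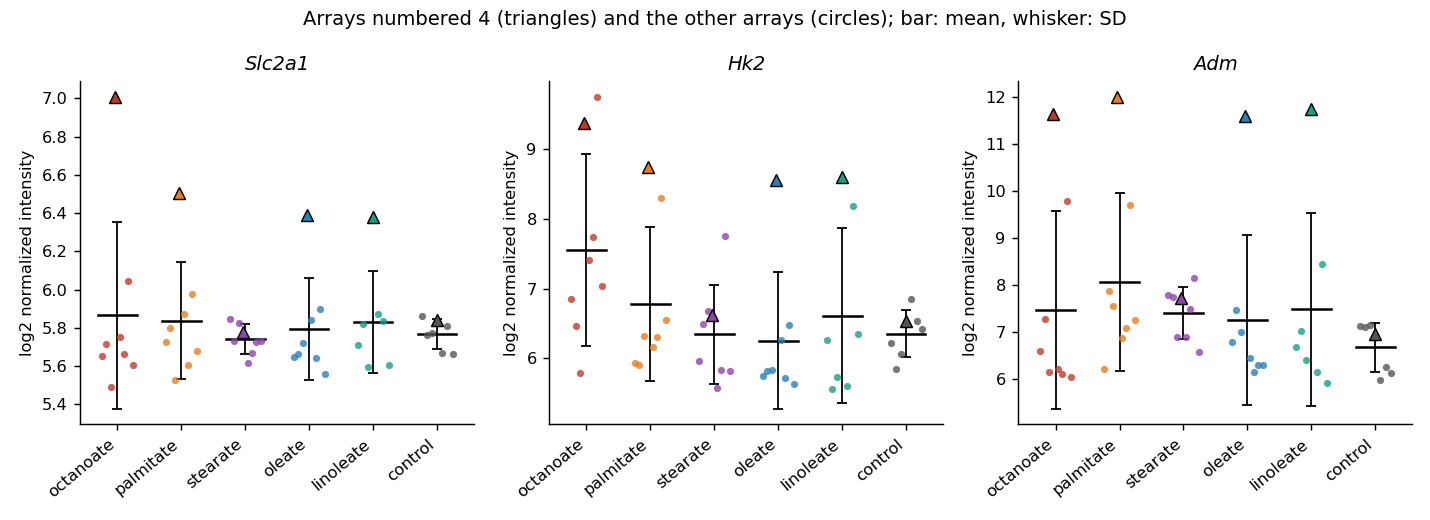
Log2 normalized intensity of Slc2a1, Hk2 and Adm in each array by treatment, with control on the right; triangles mark replicate 4 of each group, circles the other arrays, bars group means and whiskers SD. Replicate 4 of octanoate, palmitate, oleate and linoleate is high for all 3 genes, whereas replicate 4 of stearate and of control is not.

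The steps of glycolysis follow. Pfkm, the muscle form of the enzyme that commits sugar to glycolysis, had a lowest, median and highest level of 7.95, 8.51 and 9.53 with octanoate, 8.54, 9.10 and 9.98 with palmitate, and 8.76, 9.54 and 10.26 with stearate. It read 8.98, 9.37 and 10.43 with oleate and 9.03, 9.22 and 10.89 with linoleate, against 9.18, 9.83 and 10.09 in control. All 8 octanoate arrays were below the control median and 6 of them below the lowest control array, replicates 2 and 4 being the exceptions. Replicate 2 was the highest array of palmitate, oleate and linoleate.

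Pfkm changed by -1.08 ± 0.26 with octanoate (adjusted p = 0.00212), which is 2.11-fold lower. The change was -0.59 ± 0.26 with palmitate (adjusted p = 0.141), and between -0.27 and -0.20 with stearate, oleate and linoleate (adjusted p = 0.564, 1.00 and 0.962). The mean of the 5 fatty acids gave -0.48 ± 0.21 (adjusted p = 0.151). The group means thus ran in the order octanoate 8.66, palmitate 9.14, stearate 9.47, oleate 9.47, linoleate 9.54 and control 9.73, and without the replicate block no neighbours compared in that order differed beyond their spread. The octanoate call held in all 15 fits that left out 1 array (change -1.20 to -0.97) and was lost with median scaling (-1.13, adjusted p = 0.101).

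Palmitate and octanoate arrays with the same replicate number were taken as pairs, because their deviations from the group means correlated (0.326 to 0.874). The labels do not state such pairs. With the number as a block, the difference of Pfkm between palmitate and octanoate, 0.48 on the log2 scale, passed the test (adjusted p = 0.0487), whereas it did not without the block (adjusted p = 0.453).

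Pfkfb2 codes for the heart form of the enzyme that makes and removes the activator of phosphofructokinase. Its level lay between 5.46 and 6.01 in all 46 arrays, none of which detected it, so its response could not be measured here.

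Gapdh, the enzyme midway through glycolysis that is often taken as a reference gene, had a lowest, median and highest level of 14.93, 15.37 and 15.63 with octanoate, 15.34, 15.42 and 15.48 with palmitate, and 15.24, 15.40 and 15.57 with stearate. It read 14.93, 15.40 and 15.72 with oleate and 15.17, 15.48 and 15.72 with linoleate, against 15.22, 15.39 and 15.94 in control. The groups overlapped throughout, and the changes against control lay between -0.20 ± 0.12 with octanoate (adjusted p = 0.22) and -0.06 ± 0.12 with linoleate (adjusted p = 0.985). The probe ranked 1 to 40 of 22517 by raw signal in every array, so it reads near the top of the scale, where differences can be compressed. It was designed on a predicted transcript, and the rat genome holds many processed copies of Gapdh, so its signal may come from more than 1 locus. Under median scaling the octanoate and linoleate changes turned positive (0.04 and 0.02), still short of the test.

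Eno3, the enolase of striated muscle, differed between fatty acids. Its lowest, median and highest level was 10.40, 10.64 and 10.98 with octanoate, 10.37, 10.85 and 11.13 with palmitate, and 11.42, 11.67 and 11.99 with stearate. It read 10.22, 10.87 and 11.49 with oleate and 10.30, 10.86 and 11.45 with linoleate, against 10.25, 11.37 and 12.56 in control. The stearate arrays did not overlap those of octanoate or palmitate, and only the highest oleate and the highest linoleate array reached their range. Control spread the widest, with replicates 2 and 4 at 12.56 and 12.01 and replicates 1 and 3 at 10.25 and 10.50.

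Stearate exceeded palmitate in Eno3 by 0.88 ± 0.21 (adjusted p = 0.00987), and oleate was below stearate by a log2 change of -0.84 ± 0.21 (adjusted p = 0.00695), so the level was higher with the longer of these saturated chains, and with the saturated chain than with the unsaturated one of the same length. Both calls held in all 16 fits that left out 1 array, stearate replicate 4 included (0.86 and -0.82 without it). They were lost with median scaling (0.41 and -0.39, adjusted p = 0.324 and 0.322) and, narrowly, without the arrays numbered 4 and 7 (0.83 and -0.73, adjusted p = 0.0522 and 0.0528). Linoleate and oleate differed by 0.05, with a 95% interval from -0.38 to 0.49.

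Cardiomyocyte and other markers moved beside Eno3. Of 11 cardiomyocyte markers 1 was higher with stearate than with palmitate, where 1.1% of all genes were higher, namely Myl2 (1.45, adjusted p = 0.00279). With oleate 3 of the 11 were lower than with stearate, where 2.27% of all genes were lower. They were Myl2, Tnnc1 and Tnni3 (-1.40, -0.49 and -0.40, adjusted p = 0.00178, 0.0107 and 0.00935). The summed intensity of the 11 markers was 237674 to 313472 with stearate, against 187698 to 269773 with palmitate, and was 191075 to 274874 with oleate, against that stearate range. Cspg4 moved the opposite way to Eno3 (-1.10 and 1.80, adjusted p = 0.0319 and 0.000105), and Cd68 was lower with stearate than with palmitate (-0.95, adjusted p = 0.00629). Cd68 was the 1 called there of the 2 macrophage markers tested, whose median change was -0.49. The part of these shifts in the differences of Eno3 was not tested.

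Against control, Eno3 changed by -0.68 ± 0.22 with octanoate (adjusted p = 0.0173), while palmitate (-0.53), oleate (-0.49), linoleate (-0.44) and stearate (0.35) did not pass (adjusted p = 0.104, 1.00, 0.74 and 0.301). The octanoate call was lost without control replicate 2 (-0.48, adjusted p = 0.0909) or control replicate 4 (-0.57, adjusted p = 0.0609), and without the arrays numbered 4 and 7 (-0.51, adjusted p = 0.19). It was lost as well with median scaling (-0.68, adjusted p = 0.0983) and without the detection filter (-0.68, adjusted p = 0.0536). The stearate difference turned negative with median scaling (-0.25, adjusted p = 0.508).

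Ldhb, the heart form of lactate dehydrogenase, had a lowest, median and highest level of 12.59, 13.59 and 14.39 with octanoate, 13.02, 13.81 and 14.74 with palmitate, and 13.48, 14.04 and 14.84 with stearate. It read 13.05, 14.21 and 14.81 with oleate and 13.77, 14.23 and 14.93 with linoleate, against 13.48, 14.29 and 15.09 in control. All groups overlapped, and octanoate replicate 5 was the lowest of the 46 arrays. The octanoate change of -0.61 ± 0.26 missed the threshold (adjusted p = 0.0769). It passed with the replicate number as a block (-0.54, adjusted p = 0.0215), without the arrays numbered 4 and 7 (-0.88, adjusted p = 0.0427) and without control replicate 4, octanoate replicate 2 or octanoate replicate 4 (adjusted p = 0.0408, 0.0414 and 0.0389). Replicate numbers were not taken to pair octanoate arrays with control arrays (correlations of deviations -0.493 to 0.364). The other changes against control ran from -0.41 with palmitate to 0.04 with linoleate.

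Storage of glucose was represented by Pygm, which releases glucose units from glycogen. Its lowest, median and highest level was 12.21, 12.74 and 13.31 with octanoate, 12.32, 13.24 and 13.57 with palmitate, and 12.55, 13.38 and 13.69 with stearate. It read 12.40, 13.19 and 14.35 with oleate and 12.38, 13.28 and 14.01 with linoleate, against 12.48, 13.69 and 14.04 in control. All 8 octanoate arrays lay below the control median, and 2 of them below the lowest control array. Replicate 4 was the lowest Pygm array of octanoate, palmitate, oleate and linoleate.

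Pygm changed by -0.67 ± 0.25 with octanoate (adjusted p = 0.0419), 1.59-fold lower, and by -0.30 to -0.12 with the other fatty acids, of which 0 passed. Pygm passed with stearate under median scaling (-0.66, adjusted p = 0.0192), where the median of all genes moved by -0.49, and in the mean of the 5 fatty acids with the signal range as a covariate (-0.52, adjusted p = 0.0238, against -0.27 and 0.431 without). The octanoate call is the weakest of the 4. It was lost in 9 of the 15 fits that left out 1 array, those without control replicate 2, 4, 5 or 7 or octanoate replicate 1, 2, 3, 4 or 6 (change -0.83 to -0.57, adjusted p up to 0.113), and without the arrays numbered 4 and 7 (-0.46, adjusted p = 0.245). The Pygm call with octanoate was also lost without the detection filter. With median scaling it stayed at -0.72 (adjusted p = 0.0238).

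**Figure D3:**
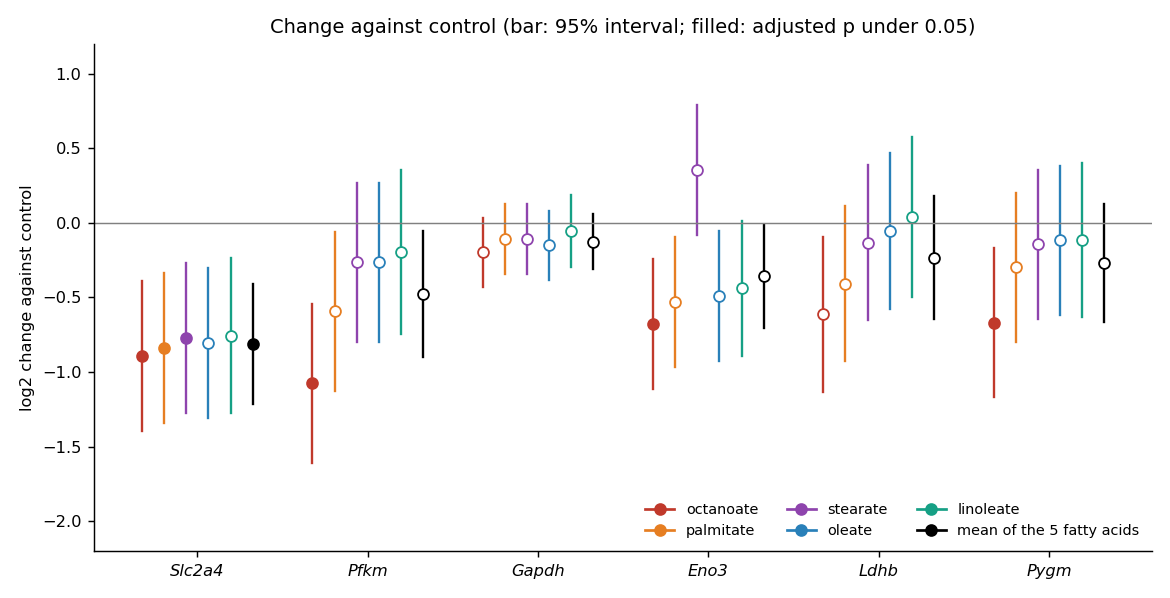
Log2 change against control of the 6 tested genes for each fatty acid and for the mean of the 5; points are changes, bars 95% intervals, and filled points have an adjusted p under 0.05. Octanoate is filled for Slc2a4, Pfkm, Eno3 and Pygm, and the stearate change of Eno3 (0.35) lies above 0, unlike its other changes.

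Counted by comparison, 4 of 6 tested genes were lower with octanoate than in control, where 13.1% of all 7182 genes tested were called lower and 24.7% in either direction. With palmitate 1 of 6 was lower against a background of 5.76%, and with stearate 1 of 6 against 8.91%. With oleate 0 of 6 were called, against 0.0557% of all genes lower and 0.571% in either direction, and with linoleate 0 of 6 against 0.139% lower. In the mean of the 5 fatty acids 1 of 6 was lower, against 4.55% of all genes lower and 7.25% in either direction. Higher calls numbered 0 of 6 in each of these, against 11.6% of all genes with octanoate, 5.3% with palmitate, 4.19% with stearate, 0.515% with oleate, 0.334% with linoleate and 2.7% in the mean. The median change of the 6 genes was -0.67 with octanoate, -0.47 with palmitate, -0.14 with stearate, -0.21 with oleate and -0.16 with linoleate, while the median over all genes tested lay between -0.06 and -0.01. For the 11 cardiomyocyte markers tested it was -0.41 with octanoate, -0.23 with palmitate, 0.09 with stearate, -0.22 with oleate and -0.13 with linoleate. A fall was thus not particular to the glucose genes. All comparisons with control use the same 7 control arrays and are not independent of one another.

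Between fatty acids, 1 of 6 genes was higher with stearate than with palmitate, where 1.1% of all genes were higher, 3.08% lower and 4.18% either. With oleate 1 of 6 was lower than with stearate, where 2.27% of all genes were lower, 4.65% higher and 6.92% either. That gene was Eno3 in both. Palmitate against octanoate called 0 of 6 in either direction without the block, against 1.41% of all genes higher, 0.821% lower and 2.23% either, and linoleate against oleate called 0 of 6 and 0 of 7182 genes by limma (35 genes had an unadjusted p under 0.05, and limma with array weights called 1). With the replicate number as a block, 5.68% of all genes passed between palmitate and octanoate, and 1 of the 6, Pfkm, among them.

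The octanoate arrays differed from control in more than these genes. Of the 11 cardiomyocyte markers tested, 4 were lower with octanoate, where 13.1% of all genes were lower. They were Myh7, the slow myosin heavy chain (-1.41, adjusted p = 0.00111), Pln, the regulator of the calcium pump (-1.62, adjusted p = 0.00307), and the troponins Tnnc1 and Tnnt2 (-0.41 and -0.43, adjusted p = 0.0177 and 0.000716). The summed normalized intensity of the 11 markers was 176178 to 220814 with octanoate, against 246784 to 297324 in control, without overlap. The ratio of the 95th percentile of the raw signal to its median was 6.96 to 20.6 with octanoate, against 11.1 to 16.2 in control. The macrophage gene Cd68 was higher with octanoate (1.22, adjusted p = 7.38e-05), while Ptprc was detected in 0 arrays. Cd14, the other macrophage gene tested, had a group mean below control with octanoate. The hypoxia-induced genes P4ha1 and Bhlhe40 were higher too (1.17 and 1.09, adjusted p = 0.0437 and 0.0161), as 2 of 10 tested on that list, where 11.6% of all genes were higher. With the signal range as a covariate the octanoate calls of Slc2a4, Pfkm, Eno3 and Pygm were kept. The part of the other shifts in the fall of the glucose genes was not tested, and in bulk RNA fewer cells of a type and less RNA per cell cannot be told apart.

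Promoters are shown for Pfkm, Eno3 and Pygm, 3 of the 4 genes that fell with octanoate, and for Slc2a1. The table of promoters used here has no entry for Slc2a4. Each is the 250 bases before the transcript start listed by RefSeq on the GRCr8 assembly, read 5′ to 3′ on the + strand, with capitals marking ACGTG on either strand, which can lie within the longer motif CACGTG. They are Pfkm at chr7:131113849-131114098, Eno3 at chr10:55868936-55869185, Pygm at chr1:213119555-213119804 and Slc2a1 at chr5:138002272-138002521, and those of Pfkm and Eno3 lie inside the annotated gene, before a start downstream of the first.
Pfkm: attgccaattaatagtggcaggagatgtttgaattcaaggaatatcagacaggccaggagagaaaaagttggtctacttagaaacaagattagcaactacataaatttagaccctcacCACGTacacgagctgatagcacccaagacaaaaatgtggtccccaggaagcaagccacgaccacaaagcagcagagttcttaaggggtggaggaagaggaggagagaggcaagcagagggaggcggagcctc
Eno3: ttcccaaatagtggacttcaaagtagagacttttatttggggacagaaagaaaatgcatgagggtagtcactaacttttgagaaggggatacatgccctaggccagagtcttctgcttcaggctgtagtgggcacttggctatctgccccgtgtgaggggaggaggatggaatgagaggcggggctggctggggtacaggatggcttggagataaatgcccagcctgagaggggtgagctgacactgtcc
Pygm: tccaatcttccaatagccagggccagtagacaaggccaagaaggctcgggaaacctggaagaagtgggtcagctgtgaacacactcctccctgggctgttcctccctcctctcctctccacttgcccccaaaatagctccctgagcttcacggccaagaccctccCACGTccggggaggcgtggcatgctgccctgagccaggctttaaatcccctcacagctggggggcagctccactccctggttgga
Slc2a1: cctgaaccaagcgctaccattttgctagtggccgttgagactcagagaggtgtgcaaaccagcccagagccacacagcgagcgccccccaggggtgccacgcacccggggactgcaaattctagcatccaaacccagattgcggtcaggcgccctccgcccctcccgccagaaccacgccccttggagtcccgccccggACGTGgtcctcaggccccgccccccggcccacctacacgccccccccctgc
The match begins 132 bases before the start in Pfkm, 85 in Pygm and 51 in Slc2a1, and Eno3 has none in this window, nor has Hk2. Of 10 promoter entries of 9 of the named genes, 5 held a match (Hk1 has 2 entries, 1 with a match), and of all 33469 entries 16.6% did. These matches describe the letters and nothing about a factor.

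Each tested gene had a gene whose pattern over the 46 arrays was closest to it by Pearson correlation, given as a description of arrays that share treatment groups and scaling. Slc2a4 was closest to Gnb3 (r = 0.724), Pfkm to Got1 (0.794), Gapdh to the processed copy Gapdh-ps118 (0.760), Eno3 to Dhrs11 (0.842), Ldhb to Mdh1 (0.920) and Pygm to Adcy9 (0.921).

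Beyond these genes, 105 further genes of glucose handling were listed, of which 61 were tested. With octanoate 6 rose and 12 fell, with palmitate 2 rose and 4 fell, with stearate 0 rose and 5 fell, and with oleate and linoleate 0 passed. Over all genes tested, 11.6% rose and 13.1% fell with octanoate, 5.3% and 5.76% with palmitate, and 4.19% and 8.91% with stearate, shares that the counts of single groups below are to be read against. The median change of the 61 was -0.03 with octanoate, 0.07 with palmitate and 0.01 with stearate, close to that of all genes tested (-0.02, -0.03 and -0.06).

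Among 6 tested genes of glucose uptake, octanoate lowered Txnip, an arrestin-like protein that restrains glucose uptake and is itself induced by glucose. Txnip had a lowest, median and highest level of 12.96, 13.54 and 13.90 with octanoate, 14.45, 14.83 and 15.17 with palmitate, and 14.37, 14.68 and 14.77 with stearate. It read 14.17, 15.15 and 15.26 with oleate and 13.85, 15.09 and 15.34 with linoleate, against 14.12, 14.80 and 14.93 in control. The octanoate arrays lay below all palmitate and all control arrays. The change was -1.12 ± 0.16 with octanoate against control (adjusted p = 2.79e-06) and 1.35 ± 0.16 for palmitate against octanoate (adjusted p = 4.13e-08), and both held in all 8 other settings and in all fits that left out 1 array. Oleate and linoleate gave 0.44 and 0.34 (adjusted p = 0.595 and 0.709). Replicate 4 was the lowest Txnip array of both. Without the arrays numbered 4 and 7 these became 0.68 and 0.58 and passed (adjusted p = 0.00183 and 0.034), as did Txnip for oleate against stearate (0.49, adjusted p = 0.00568), which also passed with the replicate number as a block (0.39, adjusted p = 0.0462, against 0.125 without either). Rab10, a small GTPase that brings GLUT4 vesicles to the membrane, was higher with octanoate (0.70 ± 0.20, adjusted p = 0.00766), and lost that call with median scaling (0.75, adjusted p = 0.0779).

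In upper glycolysis 1 of 7 tested genes passed with octanoate, where 13.1% of all genes fell, namely Aldoc, the gene of aldolase C. It had a lowest, median and highest level of 6.45, 7.05 and 8.06 with octanoate, 6.72, 7.59 and 8.21 with palmitate, and 6.60, 7.22 and 7.74 with stearate. It read 7.49, 8.52 and 9.01 with oleate and 7.98, 8.31 and 9.20 with linoleate, against 7.76, 8.68 and 9.10 in control. The saturated fatty acids were thus low and the unsaturated ones near control. Its probe was not detected in octanoate replicates 5, 6 and 7, palmitate replicates 6 and 7, and stearate replicates 5, 6, 7 and 8. Those levels are near the detection limit. Aldoc changed by -1.36 ± 0.26 with octanoate (adjusted p = 0.000136), -1.29 ± 0.26 with stearate (adjusted p = 0.000706) and 1.29 ± 0.25 for oleate against stearate (adjusted p = 0.000567), calls that held in all 8 other settings. The palmitate change of -0.90 (adjusted p = 0.0184) was lost with median scaling, without the arrays numbered 4 and 7 (-0.75, adjusted p = 0.164), and without control replicate 2 or 7 or palmitate replicate 6 (adjusted p up to 0.055). The mean of the 5 fatty acids gave -0.70 (adjusted p = 0.0291), a call lost without control replicate 2, 3, 4 or 7 (adjusted p up to 0.119) and without the arrays numbered 4 and 7 (-0.55, adjusted p = 0.27).

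In lower glycolysis octanoate lowered 2 of 8 tested genes and raised 1, against 13.1% of all genes lower and 11.6% higher. Bpgm, bisphosphoglycerate mutase, fell by 0.96 with octanoate (adjusted p = 0.0037) and Gpd1, cytosolic glycerol phosphate dehydrogenase, fell by 0.90 (adjusted p = 0.0118), both held in all 8 other settings. Gpd2, its mitochondrial counterpart, rose by 0.62 (adjusted p = 0.0356) and was named after its value was seen. Bpgm was also lower with palmitate (-0.77, adjusted p = 0.0409) and higher with stearate than with palmitate (0.86, adjusted p = 0.0331). The first of these was lost in 10 of 15 fits that left out 1 array, all but those without control replicate 1 or 7 or palmitate replicate 2, 3 or 5 (adjusted p up to 0.131), and the second without palmitate replicate 4 or stearate replicate 3, 5, 6 or 7 (adjusted p up to 0.102). Bpgm gave -0.61 and 0.60 without the arrays numbered 4 and 7, and both calls were lost (adjusted p = 0.057 and 0.0571). With the replicate number as a block Gpd1 was higher with palmitate than with octanoate (0.89, adjusted p = 0.0037, against 0.0581 without it), as it was without the arrays numbered 4 and 7 (0.93, adjusted p = 0.00556), and Bpgm lower with oleate than with stearate (-0.57, adjusted p = 0.0213, against 0.156).

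Of 6 tested genes of lactate and pyruvate transport, 1 passed with octanoate, where 24.7% of all genes did. Ldhd, which oxidizes D-lactate in mitochondria, changed by -0.71 ± 0.17 with octanoate (adjusted p = 0.00206), and this was lost with median scaling (-0.74, adjusted p = 0.089). Ldhd changed by -0.51 with palmitate (adjusted p = 0.0461) and by 0.60 for stearate against palmitate (adjusted p = 0.0282). Each of those was lost in several fits that left out 1 array: without control replicate 2, 3, 4, 5 or 7 or palmitate replicate 3, 4, 6 or 7 for the first (adjusted p up to 0.128), and without palmitate replicate 3, 4 or 7 or stearate replicate 1 or 6 for the second (adjusted p up to 0.0802). Ldhd gave -0.35 and 0.45 without the arrays numbered 4 and 7, and both calls were lost (adjusted p = 0.361 and 0.174). Under median scaling Ldhd was 0.05 apart between stearate and palmitate. Ldha, the muscle form of lactate dehydrogenase, did not pass against control for any fatty acid, with 0.10 ± 0.43 for octanoate and 0.51 ± 0.44 for linoleate.

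In glycogen metabolism octanoate lowered 4 of 13 tested genes and raised 1, against 13.1% of all genes lower and 11.6% higher. Pygb, the glycogen phosphorylase first found in brain and also made in heart, ran from 9.50 to 11.06 with octanoate, with a mean of 10.13. Its lowest, median and highest level was 9.92, 10.73 and 11.89 with palmitate and 10.44, 10.73 and 11.51 with stearate. It read 10.98, 11.43 and 12.14 with oleate and 10.68, 11.15 and 11.97 with linoleate, against 11.34, 11.80 and 12.01 in control. All octanoate arrays lay below all control arrays, and the other groups overlapped with control. Pygb changed by -1.65 ± 0.23 with octanoate (adjusted p = 1.64e-06), -0.98 ± 0.23 with palmitate (adjusted p = 0.00385), -0.93 ± 0.23 with stearate (adjusted p = 0.00551) and -0.88 ± 0.18 in the mean of the 5 fatty acids (adjusted p = 0.00208). The palmitate call was lost with median scaling (-1.12, adjusted p = 0.137) and without the arrays numbered 4 and 7 (-0.73, adjusted p = 0.0814), and the other 3 held in all 8 settings.

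Gyg1, the primer of glycogen synthesis, changed by -0.42 with octanoate (adjusted p = 0.0097) and was named after its value was seen. Gaa, the lysosomal enzyme that degrades glycogen, was lower with stearate (-1.01 ± 0.25, adjusted p = 0.00468, detected in 2 of 8 stearate and 6 of 7 control arrays) and higher with oleate than with stearate (0.84, adjusted p = 0.0206). The first was lost without the arrays numbered 4 and 7 (-0.75, adjusted p = 0.103), the second also with array weights and without oleate replicate 1 or stearate replicate 8 (adjusted p up to 0.0656). Without the arrays numbered 4 and 7 the second was 0.83 (adjusted p = 0.0665). With octanoate Gaa changed by -0.69 (adjusted p = 0.0352), lost without the arrays numbered 4 and 7 (-0.41, adjusted p = 0.412) and without control replicate 2, 4 or 7 or octanoate replicate 3, 5 or 7 (adjusted p up to 0.0939). Phkg2, a catalytic subunit of phosphorylase kinase, changed by -0.71 with stearate (adjusted p = 0.0222), lost without stearate replicate 5, 6 or 8 (adjusted p up to 0.0699) and without the arrays numbered 4 and 7 (-0.71, adjusted p = 0.0734).

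Ppp1r3c, which brings a protein phosphatase to glycogen and so favours synthesis, was the 1 glycogen gene that rose. It was higher with octanoate (0.54 ± 0.18, adjusted p = 0.0192) and palmitate (0.52 ± 0.18, adjusted p = 0.0472) and lower with stearate than with palmitate (-0.81 ± 0.17, adjusted p = 0.00312). The last of these held in all 8 other settings. The octanoate call was lost without octanoate replicate 4 or 7 (adjusted p up to 0.0643), and the palmitate call in all but 3 of 15 fits, those without control replicate 1 or palmitate replicate 1 or 2 (adjusted p up to 0.104). Without the arrays numbered 4 and 7 Ppp1r3c gave 0.32 with octanoate and 0.46 with palmitate, and both calls were lost (adjusted p = 0.138 and 0.0696). With the replicate number as a block Pygb was higher with palmitate than with octanoate (0.68, adjusted p = 0.0107, against 0.108 without) and higher with oleate than with stearate (0.66, adjusted p = 0.00716, against 0.0645), and the oleate difference of Pygb passed without stearate replicate 4 too (0.75, adjusted p = 0.0265).

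In the branches that leave glycolysis, octanoate raised 3 of 13 tested genes and lowered 1, against 11.6% of all genes higher and 13.1% lower. Uap1, the last enzyme in making UDP-N-acetylglucosamine, had a lowest, median and highest level of 8.64, 8.97 and 9.46 with octanoate, against 5.97, 7.06 and 8.14 in control. The 2 groups did not overlap, and the change was 1.92 ± 0.44 (adjusted p = 0.000951), or 3.79-fold. Gfpt1, the entry enzyme of the same hexosamine pathway, read 6.53, 6.99 and 7.26 with octanoate, against 5.72, 6.03 and 6.26 in control, where 0 of 7 arrays detected it. Its change was 0.94 ± 0.15 (adjusted p = 1.41e-05), and as the control level is only a bound, the gene was at least 1.04-fold higher. Both octanoate calls held in all 8 other settings and in all 15 fits without 1 array.

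Gfpt1 was detected in 14 of 39 fatty acid arrays and in 0 control arrays, so its further changes rest largely on levels under the detection limit. Those with palmitate (0.47, adjusted p = 0.0397) and in the mean of the 5 fatty acids (0.41, adjusted p = 0.029) passed too, and no fold is given for them. The first was lost without control replicate 2, 4 or 7 or palmitate replicate 4, 5, 6, 7 or 8 (adjusted p up to 0.107), the second without control replicate 2, 4 or 7 (adjusted p up to 0.122). Gfpt1 gave 0.38 and 0.31 without the arrays numbered 4 and 7, and both were lost (adjusted p = 0.23 and 0.275). Rpia, of the pentose phosphate pathway, rose by 0.47 (adjusted p = 0.0335) and Sord, sorbitol dehydrogenase, fell by 0.70 (adjusted p = 0.00887) with octanoate, both named after their values were seen.

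Of 8 tested regulators, Klf15, a transcription factor known to induce Slc2a4, was the one that changed against control with 2 fatty acids. Klf15 had a lowest, median and highest level of 6.39, 7.04 and 7.60 with octanoate, 6.47, 7.23 and 8.41 with palmitate, and 5.89, 6.41 and 7.33 with stearate. It read 5.86, 7.41 and 7.96 with oleate and 6.47, 7.37 and 7.96 with linoleate, against 7.45, 7.83 and 8.35 in control. The stearate arrays lay below all control arrays. Klf15 was detected in 26 of 39 fatty acid arrays and in all 7 control arrays. Stearate replicates 1, 5, 6, 7 and 8 did not detect it, so those levels are near the detection limit. The change was -1.33 ± 0.28 with stearate (adjusted p = 0.00119), which held in all 8 other settings, -0.90 ± 0.28 with octanoate (adjusted p = 0.0149), lost with median scaling (-0.80, adjusted p = 0.208), and -0.78 ± 0.22 in the mean of the 5 fatty acids (adjusted p = 0.0242), lost without control replicate 2, 3 or 7 (adjusted p up to 0.0622) and without the arrays numbered 4 and 7 (-0.84, adjusted p = 0.103). With the replicate number as a block Klf15 was lower with stearate than with palmitate (-0.81, adjusted p = 0.0127, against 0.0803 without) and higher with oleate than with stearate (0.73, adjusted p = 0.0188, against 0.0931). Both Klf15 differences also passed without stearate replicate 4 (-0.93 and 0.85, adjusted p = 0.0385 and 0.0406).

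Subunits of AMP-activated protein kinase, the energy sensor that promotes glucose uptake, gave 2 calls. Prkag1 was lower with octanoate (-0.69, adjusted p = 0.0294), lost without control replicate 2, 6 or 7 or octanoate replicate 5 or 7 (adjusted p up to 0.0819) and without the arrays numbered 4 and 7 (-0.55, adjusted p = 0.116). Prkaa1 was lower with oleate than with stearate (-0.83 ± 0.20, adjusted p = 0.00559), which held in all 16 fits without 1 array and was lost with median scaling (-0.22, adjusted p = 0.703).

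**Figure D4:**
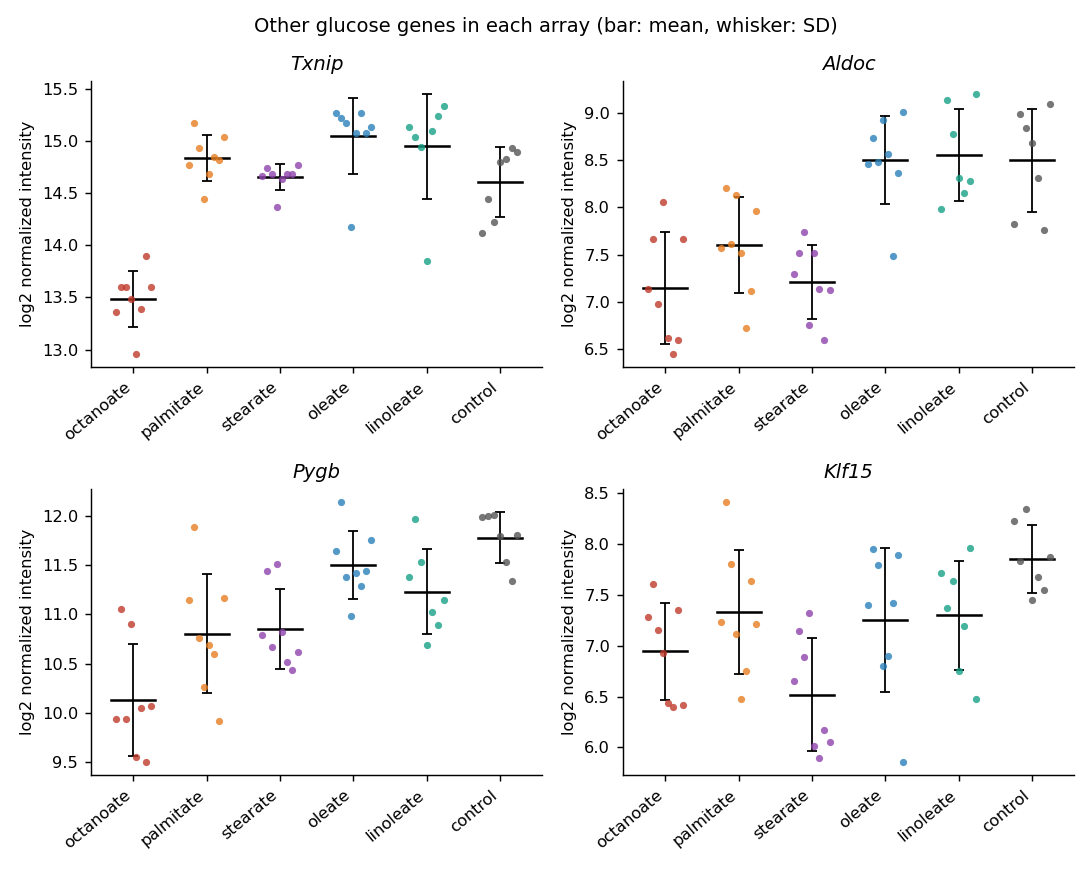
Log2 normalized intensity of Txnip, Aldoc, Pygb and Klf15 in each of 46 arrays, by treatment, with control on the right; points are arrays, bars group means and whiskers SD. Txnip is lowest with octanoate, Aldoc is lower with the 3 saturated fatty acids than in control, and Klf15 is lowest with stearate.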

How the data were processed

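RNA of 46 samples was hybridized to Illumina rat bead arrays. Per the file headers, the deposited table holds for each of 22517 probes a bead signal intensity without normalization and a detection p-value, and the submitters' processing notes name BeadStudio version 3. A second table of the authors' intensity values was quantile-normalized on a linear scale, with column medians of 173.2 to 173.9; how it was background-corrected is not given in the sources used here.

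Here the signals were background-corrected with normexp on the detection p-values (offset 16), quantile-normalized and put on a log2 scale in limma 3.58.1 (R 4.3.3; tables were made in Python 3.11.15). A probe was tested if 7 or more arrays detected it at a p-value below 0.01 (7312 probes); for genes with several, the brightest on average was taken, which left 7182 genes. One model of 6 group means over all 46 arrays gave 10 comparisons by moderated tests, each adjusted by Benjamini-Hochberg at 0.05. Samples were grouped by their titles. Precision depends on how many arrays a group has: the 95% interval of a change reached, in the median gene, 0.378 to 0.493 to either side, by comparison. A fold beside a group in which no array detected the probe is a lower bound. The script was tested on simulated data.

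The 10 genes and all gene lists were chosen with earlier results of these data known. Every one of the 10 genes was described; of each wider list, up to 3 genes past the threshold with the largest change in the mean of the 5 fatty acids, and up to 2 in each single comparison, were named, and exceptions are stated. The results of some genes of these lists are not reported here, though they are part of the counts. Pairs by replicate number are not stated in the labels and were judged from these data. Numbers were taken to pair palmitate with octanoate (correlations of deviations 0.326 to 0.874). They were likewise taken to pair stearate with palmitate (lowest 0.137, highest 0.753) and oleate with stearate (lowest 0.178, highest 0.849). Every one of these pairs was over 0.1. For linoleate with oleate 6 of 7 pairs were over 0.1 (lowest -0.141, highest 0.950), and these were not taken as paired. Fatty acid arrays were not taken as paired with control, where correlations fell as low as -0.626 (oleate). The 8 alternatives were median scaling, raw signals without background correction, a fit of all probes whether detected or not, a block for the replicate number, omission of arrays numbered 4 and 7, array weights, the signal range as a covariate, the authors' normalized values and, chosen after seeing the data, leaving out each array in turn.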

Additional observations from a re-analysis of the deposited data

Results flagged for a closer look

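In 9 of 78 groups of arrays 1 array lay far from the rest by Dixon's criterion, which chance alone meets in about 1 in 20 groups. Slc2a1 was high in octanoate replicate 4 (7.01), palmitate replicate 4 (6.5), oleate replicate 4 (6.39) and linoleate replicate 4 (6.38), and Hk2 was high in oleate replicate 4 (8.55). Txnip was low in stearate replicate 4 (14.37), oleate replicate 4 (14.17) and linoleate replicate 4 (13.85). Aldoc was low in oleate replicate 6 (7.49). Of these 9 arrays and genes, 8 belong to replicate 4, the number whose octanoate, palmitate, oleate and linoleate arrays held high Adm.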

How the results depend on the processing

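Of 480 values of the 6 genes under the 8 alternatives, 446 stayed on their side of the threshold, 19 lost and 15 gained a call, 0 called values reversed, and 43 uncalled values changed sign. Without 1 array, 1068 of 1098 stayed on their side, 24 were lost and 6 gained, and 62 uncalled values changed sign. For the other named genes 1253 of 1360 and 3004 of 3111 stayed on their side, with 88 and 131 changes of sign among uncalled values. The cause of each shift below was not tested. No background correction and the authors' normalized values kept every count of the 6 genes.

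Median scaling called 1 of the 6 genes with octanoate and 0 with palmitate, in the mean of the 5 fatty acids, for stearate against palmitate and for oleate against stearate. It called 657 of all genes with octanoate, 204 with palmitate, 1862 with stearate, 13 with oleate, 8 with linoleate, 37 for palmitate against octanoate, 502 for stearate against palmitate and 786 for oleate against stearate. It also moved the median of all genes by -0.13 with palmitate, -0.49 with stearate, -0.10 with oleate, -0.22 with linoleate, -0.19 in the mean, -0.12 for palmitate against octanoate and linoleate against oleate, -0.39 for stearate against palmitate and 0.41 for oleate against stearate. Relative to that shift Eno3 was 0.24 higher with stearate than in control, 0.80 higher with stearate than with palmitate, and 0.81 lower (-0.81) with oleate than with stearate. Higher calls made up 34.8% with palmitate (47.9% otherwise), 1.77% with stearate (32.0%), 87.5% with linoleate (70.6%), 9.50% in the mean (37.2%), 51.4% for palmitate against octanoate (63.1%), 0.996% for stearate against palmitate (26.3%) and 96.7% for oleate against stearate (67.2%).

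Without the detection filter 2 of the 6 genes were called with octanoate and 0 with stearate, and of all genes 511 with palmitate, 335 in the mean and 146 for stearate against palmitate. Without the arrays numbered 4 and 7, 0 of the 6 were called with palmitate, with stearate, in the mean, for stearate against palmitate and for oleate against stearate, and of all genes 308 with palmitate, 21 with linoleate, 162 in the mean and 292 for palmitate against octanoate.

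With the replicate block 3 of the 6 were called with palmitate, 1 with oleate, 1 with linoleate, 2 in the mean and 1 for palmitate against octanoate; of all genes 1640 were called with palmitate, 1502 with stearate, 72 with oleate, 66 with linoleate, 1298 in the mean, 408 for palmitate against octanoate, 815 for stearate against palmitate and 999 for oleate against stearate. It called 5 with octanoate and changed no other count of the 6 genes. With array weights 2 of the 6 were called with palmitate and 1 with oleate; of all genes 1313 with palmitate, 1600 with stearate, 86 with oleate, 60 with linoleate, 1014 in the mean, 523 for palmitate against octanoate, 863 for stearate against palmitate, 1439 for oleate against stearate and 1 for linoleate against oleate. With the signal range as a covariate 2 of the 6 were called with palmitate, 0 with stearate and 3 in the mean; of all genes 2785 with octanoate, 1542 with palmitate, 1426 with stearate, 55 with linoleate and 1593 in the mean.

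Leaving out 1 array gave 2 to 4 of the 6 genes with octanoate (2 without control replicate 2), 0 to 2 with palmitate, 0 to 1 with stearate, 0 to 2 in the mean, 0 with oleate, with linoleate, for palmitate against octanoate and for linoleate against oleate, and 1 for stearate against palmitate and for oleate against stearate. Of all genes it called 1419 to 1835 with octanoate, 519 to 933 with palmitate (519 without control replicate 2), 634 to 1171 with stearate, 31 to 41 with oleate, 23 to 37 with linoleate and 208 to 678 in the mean (208, 229 and 326 without control replicate 2, 4 and 7). It called 104 to 206 for palmitate against octanoate (104 without octanoate replicate 5, 106 without palmitate replicate 2), 170 to 395 for stearate against palmitate (170 without palmitate replicate 7, and 181, 179 and 178 without stearate replicate 5, 6 and 8), 374 to 743 for oleate against stearate and 0 to 2 for linoleate against oleate (2 without oleate replicate 4).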
